A study of Mus musculus with 117 samples.

Results

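The 32 genes described here are p53, direct targets of p53 and genes of cellular senescence: the gene for p53 itself (Trp53), its main antagonist Mdm2, and 30 genes of cell cycle arrest, cell death, DNA repair, nucleotide supply, metabolism and stress. They were taken by symbol from the RNA count table, all 32 were found among its 26301 genes, and each passed the filter on low counts in all 12 comparisons. The RNA libraries came from 10 groups of mouse cells, in which Ubc9, the only conjugating (E2) enzyme for the small protein SUMO, was depleted or not. The cells were embryonic fibroblasts (E13.5) at passage 1 (MEF), the same kind of fibroblasts after 4 days (D4) or 7 days (D7) of expression of the reprogramming factors OKSM (Oct4, Klf4, Sox2 and Myc), induced pluripotent cells derived from MEF (iPS) and embryonic stem cells at passages 15 to 20 (ES). Depletion used a hairpin (shUbc9, against shCtrl) everywhere but in ES cells, which received a small interfering RNA (siUbc9, against siCtrl). Each group had 3 libraries except MEF shUbc9 and iPS shCtrl, with 2 each. The labels do not say that replicates came from separate cultures or embryos, so each p-value speaks of library spread alone, which may be technical. D4 and D7 are whole cultures in which reprogramming is under way, and in such bulk RNA a change in the share of cells that express a gene and a change in RNA per cell cannot be told apart.

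p53 is a transcription factor that is held at a low level by Mdm2, a ubiquitin ligase whose own gene p53 switches on, so that target RNA can rise with no change in Trp53 RNA. Its targets stop the cell cycle through p21 (Cdkn1a) and support DNA repair. They start cell death through Bax, Pmaip1 (Noxa) and Bbc3 (Puma), whose proteins act at mitochondria. The Cdkn2a and Cdkn2b genes encode inhibitors of cyclin-dependent kinases, and Cdkn2a also encodes p19Arf, which restrains Mdm2. Both loci are induced in senescent fibroblasts, are silenced in pluripotent cells and, like p53, are known barriers to reprogramming.

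p53 binds DNA as a tetramer on paired copies of the p53 half-site, which reads as purines, a C, a pair of A or T, a G and pyrimidines. The half-site was searched on both strands, which read alike under this motif, in RefSeq windows around start sites (assembly GRCm38.p6, used for sequence alone). Windows were given for 24 of the 32 genes, and 10 of the 24 (41.7%) held at least 1 half-site, against 9.55% of 27025 genes. The motif was chosen because the genes are p53 targets, so this share is a description of the list. The sequences below are the 250 bases upstream of the start, with half-sites in capitals. They are shown for Mdm2, Ccng1 and Ei24, which rose in 4 cell states, and for Cdkn1a, which moved in opposite directions in 2 of them. Sesn1, which fell most at D7, is shown as well. The window of Eda2r, which also rose in the 4 states, held 0 half-sites and is not shown. The earlier of the Cdkn1a starts lies at chr17:29090729-29090978 (plus strand), Mdm2 at chr10:117710759-117711008 (minus strand) and Ccng1 at chr11:40755287-40755536 (minus strand). Ei24 lies at chr9:36797335-36797584 (minus strand) and the later of the Sesn1 starts at chr10:41887189-41887438 (plus strand).
Cdkn1a: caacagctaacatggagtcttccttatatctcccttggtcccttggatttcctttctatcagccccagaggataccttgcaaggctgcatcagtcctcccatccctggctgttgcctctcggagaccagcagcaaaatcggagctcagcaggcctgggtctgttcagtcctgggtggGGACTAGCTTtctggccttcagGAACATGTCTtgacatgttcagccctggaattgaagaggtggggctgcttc
Mdm2: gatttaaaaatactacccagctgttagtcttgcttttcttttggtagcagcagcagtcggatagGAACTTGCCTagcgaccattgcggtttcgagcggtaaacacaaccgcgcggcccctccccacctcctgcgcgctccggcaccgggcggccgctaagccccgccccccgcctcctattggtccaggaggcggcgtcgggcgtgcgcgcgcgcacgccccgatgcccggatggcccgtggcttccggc
Ccng1: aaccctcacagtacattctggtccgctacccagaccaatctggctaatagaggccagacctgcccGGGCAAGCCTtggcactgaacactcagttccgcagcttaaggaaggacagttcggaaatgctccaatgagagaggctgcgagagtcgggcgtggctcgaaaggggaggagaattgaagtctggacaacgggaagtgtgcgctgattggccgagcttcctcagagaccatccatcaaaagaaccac
Ei24: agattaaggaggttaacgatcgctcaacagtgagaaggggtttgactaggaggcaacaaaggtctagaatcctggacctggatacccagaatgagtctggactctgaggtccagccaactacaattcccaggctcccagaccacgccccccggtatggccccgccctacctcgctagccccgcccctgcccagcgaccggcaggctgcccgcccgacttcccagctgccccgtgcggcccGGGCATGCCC
Sesn1: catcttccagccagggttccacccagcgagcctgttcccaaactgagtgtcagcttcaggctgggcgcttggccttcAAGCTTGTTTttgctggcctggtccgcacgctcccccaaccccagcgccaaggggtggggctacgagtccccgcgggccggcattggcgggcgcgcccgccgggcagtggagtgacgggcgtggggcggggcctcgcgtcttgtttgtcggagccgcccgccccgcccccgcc
Cdkn1a was the only one of the 24 genes with a close pair of half-sites, an arrangement found in 0.074% of all genes. The pair lay 73 and 51 bases upstream of the earlier Cdkn1a start, and the window of the later start held 0 half-sites. The half-site of Mdm2 began 186 bases upstream, that of Ccng1 185 bases, that of Ei24 10 bases and that of Sesn1 173 bases. The window of the earlier Sesn1 start held 0 half-sites. A match shows only that these letters are present, and p53 binding was not measured.

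CPM values below are counts scaled to library size, on 1 common scale, and adjusted p-values come from the edgeR quasi-likelihood test. Gene counts ranged from 11.4 to 58.8 M per library, and the smallest library, iPS shUbc9 replicate 2, stood apart from the other iPS libraries in several of the 32 genes. The cell labels were checked on summed markers: 10 fibroblast markers were at 26600 to 30600 CPM in MEF shCtrl and 74.9 to 90.3 CPM in ES siCtrl, and 10 pluripotent markers at 0.467 to 0.738 and 3640 to 3900 CPM.

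Depletion of Ubc9 raised many of the 32 genes in 3 of the 5 cell states. The number that rose was 5 in MEF, 17 at D4, 14 at D7, 0 in iPS cells and 21 in ES cells, and the number that fell was 2, 6, 7, 0 and 3. Among all genes tested, the edgeR test called 6.04% in MEF (3.83% higher and 2.21% lower), 53.2% at D4 (27.2% and 26.1%), 53.6% at D7 (27.3% and 26.3%), 0% in iPS cells and 39.1% in ES cells (21.3% and 17.8%). The control and depleted libraries did not overlap for 12 members in MEF, 22 at D4, 17 at D7, 4 in iPS cells and 24 in ES cells, beside 34.1%, 60.3%, 58.2%, 12.4% and 51.4% of all genes. The median log2 fold change of the members was 0.04 in MEF, 0.22 at D4, 0.23 at D7, 0.28 in iPS cells and 0.36 in ES cells. For all genes tested it was 0.00, -0.01, 0.01, 0.02 and 0.01. The iPS median rests on changes of which none was called. Members called with a change of at least 2-fold numbered 1 at D4, 2 at D7 and 4 in ES cells. That count was not made for all genes. The median absolute log2 fold change of the members was 0.10 in MEF, 0.37 at D4, 0.33 at D7, 0.34 in iPS cells and 0.42 in ES cells. For all genes tested it was 0.10, 0.33, 0.38, 0.26 and 0.22.

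**Figure D1:**
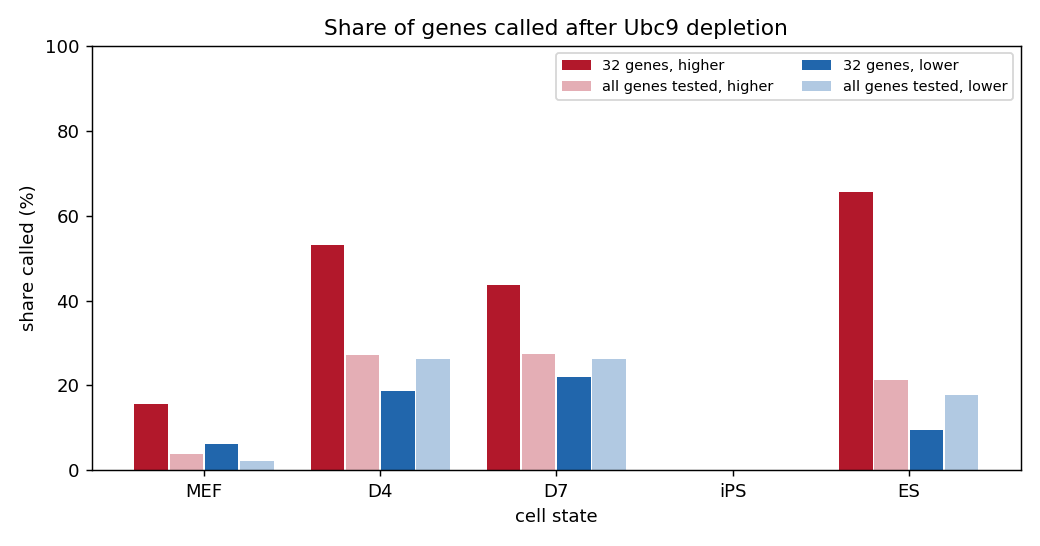
Share of genes (%, vertical axis) called higher (red) or lower (blue) after Ubc9 depletion in each cell state, for the 32 genes (solid bars) and for all genes tested (pale bars). Rises of the 32 genes stand above those of all genes in MEF (3.83% of all genes), at D4 (27.2%), D7 (27.3%) and in ES cells (21.3%). No bar appears in iPS cells, where no gene was called.

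Mdm2, Ccng1, Eda2r and Ei24 rose in MEF, at D4, at D7 and in ES cells, comparisons that share no library, whereas 0.376% of the 14889 genes tested in all 4 did so. A further 8 genes (Pmaip1, Bax, Btg2, Phlda3, Plk2, Aen, Xpc and Dcxr) rose at D4, D7 and in ES cells. These 12 compare with 3.91% of the 15463 genes tested in all 3 states, and 0 members fell in all 3. The MEF calls of Mdm2, Eda2r and Ei24 ended when single libraries were left out, and Ccng1 alone held in all 4 states. Of the 12 genes, Ccng1, Pmaip1, Eda2r, Plk2 and Ei24 held in all 3 states whichever library was left out. The 4 members Sesn1, Sesn2, Zmat3 and Polk fell at both D4 and D7, beside 18.9% of the 16715 genes tested in both. Tnfrsf10b, a receptor for the death ligand TRAIL, and Cdkn2a were called in none of the 4 states. Called in all 4 were 6 members, of which Fas and Polk did not keep 1 direction. The like counts were not made for all genes.

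**Figure D2:**
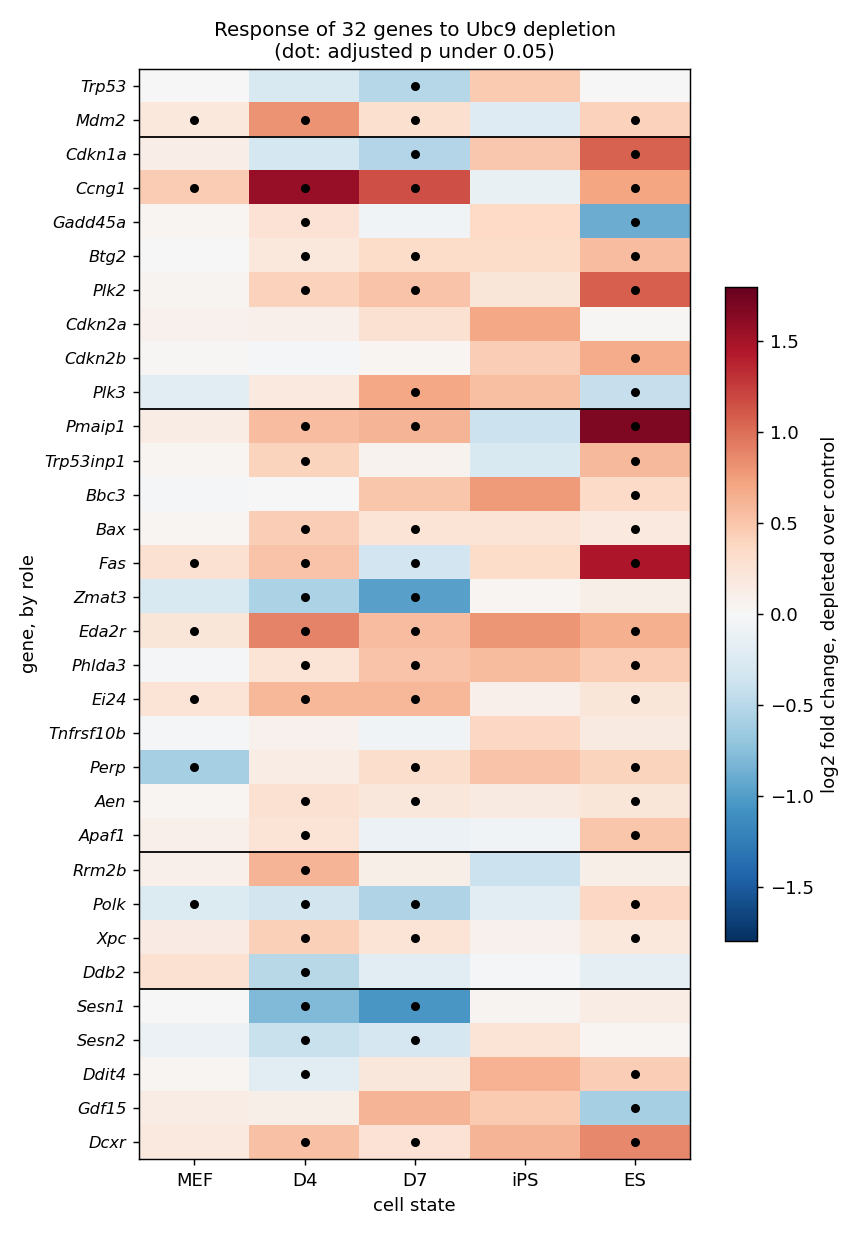
Log2 fold change of each of the 32 genes (rows, grouped by role) after Ubc9 depletion in 5 cell states (columns), with red for higher and blue for lower in depleted cells and a black dot for an adjusted p under 0.05. Ccng1 is red with a dot in MEF (0.46), D4 (1.57), D7 (1.16) and ES cells (0.71), and the iPS column has no dot.

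Trp53 RNA itself was not called higher in any state. In MEF it was at 64.4, 56.3 and 62.1 CPM with shCtrl and at 62.6 and 60.4 CPM with shUbc9, and in ES cells at 239, 257 and 247 CPM against 258, 226 and 232 CPM. These groups overlapped, with log2 fold changes of 0.01 ± 0.08 (SE, adjusted p = 0.966) and -0.01 ± 0.07 (adjusted p = 0.952). At D4 the shCtrl libraries had 97.7, 73.6 and 92.9 CPM and the shUbc9 libraries 73.6, 74.5 and 73.6 CPM (log2 fold change -0.28 ± 0.11, adjusted p = 0.0589), a fall that DESeq2 (adjusted p = 0.0428) and edgeR without the filter on low counts (adjusted p = 0.0265) called. At D7 they had 80.0, 64.0 and 98.8 CPM and 53.5, 64.6 and 56.8 CPM (-0.52 ± 0.17, adjusted p = 0.0288), and shCtrl replicate 2 fell within the range of the depleted libraries. The D7 call ended without shCtrl replicate 3 (log2 fold change -0.31, adjusted p = 0.0514) and without shUbc9 replicate 1 or 3 (adjusted p = 0.0884 and 0.0841).

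Mdm2, by contrast, rose in MEF, at D4, at D7 and in ES cells. Its levels at D4 were 237, 246 and 249 CPM with shCtrl and 436, 430 and 435 CPM with shUbc9, which was a 1.75-fold rise (adjusted p = 1.22e-05) and its largest. In ES cells it went from 294, 270 and 280 CPM to 377, 361 and 351 CPM (1.33-fold, adjusted p = 0.000285). D7 had 201, 201 and 185 CPM against 266, 230 and 240 CPM (1.22-fold, adjusted p = 0.00787, or 0.0512 without shCtrl replicate 1). MEF had 211, 231 and 217 CPM against 254 and 249 CPM (1.14-fold, adjusted p = 0.0361). In all 4 states every depleted library was above every control library. The rise at D4 exceeded that in MEF by 0.60 on the log2 scale (adjusted p = 4.03e-05), and the rise at D7 was smaller than that at D4 by 0.50 (difference -0.50, adjusted p = 0.00187).

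Among the 8 genes of cell cycle arrest, Ccng1 showed the largest rise of any member in MEF, at D4 and at D7. It encodes cyclin G1, which brings a phosphatase to Mdm2. At D4 Ccng1 was at 377, 406 and 371 CPM with shCtrl and at 1100, 1070 and 1300 CPM with shUbc9 (2.96-fold, adjusted p = 5.48e-06). At D7 it was at 388, 417 and 358 CPM and at 985, 801 and 878 CPM (2.23-fold, adjusted p = 2.12e-05). MEF went from 609, 627 and 644 CPM to 906 and 819 CPM (1.37-fold, adjusted p = 0.00355), and ES cells from 687, 564 and 640 CPM to 1080, 969 and 952 CPM (1.64-fold, adjusted p = 0.000172). No control library reached a depleted one, and all of these calls held when any 1 library was left out. The response at D4 was larger than in MEF by 1.09 on the log2 scale (adjusted p = 3.49e-05).

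Cdkn1a, which encodes p21, moved in opposite directions. In ES cells it rose from 29.7, 34.1 and 31.2 CPM to 58.4, 67.1 and 65.4 CPM (2.08-fold, adjusted p = 6.3e-06), and the groups were clearly apart. At D7 the shCtrl libraries had 303, 266 and 418 CPM and the shUbc9 libraries 229, 251 and 226 CPM, so that the groups did not overlap but shCtrl replicate 2 lay close to the depleted libraries. The D7 fall was 1.45-fold (log2 fold change -0.53 ± 0.17, adjusted p = 0.0299), and the call ended without shUbc9 replicate 1 (adjusted p = 0.0795) or replicate 3 (adjusted p = 0.0905). The D4 levels were 372, 260 and 315 CPM against 245, 233 and 294 CPM (adjusted p = 0.0945, or 0.0319 and called without the filter on low counts), and those in MEF were 257, 231 and 233 CPM against 276 and 250 CPM (adjusted p = 0.387). Both of these pairs of groups overlapped. The ES response differed from that at D7 by 1.53 on the log2 scale (adjusted p = 3.96e-05). Among the control libraries of D4 and of D7, Trp53, Cdkn1a and Zmat3 were each lowest in replicate 2. The part of that library in their falls was not tested, beyond the values without single libraries given here.

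Plk2 and Plk3 encode stress-responsive Polo-like kinases. Plk2 in ES cells went from 125, 110 and 119 CPM to 247, 245 and 231 CPM (2.11-fold, adjusted p = 1.03e-06), with every depleted library above the controls. It rose at D4 from 165, 184 and 160 CPM to 233, 230 and 225 CPM (1.33-fold) and at D7 from 146, 150 and 116 CPM to 214, 192 and 194 CPM (1.42-fold), and these groups did not overlap. The Plk3 response was split: 1.62-fold higher at D7 (adjusted p = 0.00528) and 1.34-fold lower in ES cells (adjusted p = 0.000159), a difference of -1.18 on the log2 scale. Gadd45a, a growth arrest gene induced by DNA damage, fell 1.87-fold in ES cells, from 28.5 ± 2.34 to 14.8 ± 0.231 CPM (SD, n = 3 each, edgeR adjusted p = 6.36e-06). At D4 it was called higher (8.96 ± 1.05 to 10.9 ± 0.275 CPM), a call lost in 4 of 6 omissions of 1 library. Btg2, an antiproliferative gene, rose 1.14-fold at D4, 1.25-fold at D7 and 1.46-fold in ES cells. In the annotation Gadd45a and Plk3 each overlap another gene of the table, as do Zmat3, Ddb2 and Apaf1, and the strand setting of the counting is not given, so their counts may hold reads of the neighbour.

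Of the senescence inhibitors, Cdkn2a was called in none of the 5 states and Cdkn2b in 1. Cdkn2a, whose single count joins p16Ink4a and p19Arf, was at 60.7, 62.9 and 54.4 CPM in MEF shCtrl and at 62.7 and 63.0 CPM in MEF shUbc9. At D4 it was at 42.5, 44.5 and 41.2 CPM against 49.6, 39.7 and 49.4 CPM, at D7 at 53.1, 57.8 and 53.1 CPM against 57.7, 68.9 and 77.1 CPM, and in ES cells at 5.86, 5.31 and 5.72 CPM against 5.37, 5.66 and 5.55 CPM. The groups overlapped in each state, and no change was called (adjusted p = 0.53, 0.442, 0.0632 and 0.855). The D7 value, a log2 fold change of 0.28 ± 0.11, passed the test with library sizes alone (0.49, adjusted p = 0.00484), a scaling that moves the median of all genes at D7 from 0.01 to 0.21.

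Cdkn2b, which encodes p15Ink4b and lies next to Cdkn2a with 0 genes between them, rose in ES cells from 5.23, 4.56 and 4.18 CPM to 7.00, 6.84 and 7.61 CPM. These groups did not overlap (1.59-fold, adjusted p = 0.00083). It did not pass in MEF (86.1, 90.2 and 74.9 against 85.0 and 85.3 CPM), at D4 (62.4, 71.1 and 63.2 against 67.6, 61.9 and 67.4 CPM) or at D7 (65.7, 73.0 and 56.8 against 60.1, 69.2 and 75.7 CPM). In these fibroblast-derived states the log2 fold changes of Cdkn2b were 0.02, -0.02 and 0.03, with SEs of 0.07, 0.07 and 0.10. The ES response exceeded that at D7 by 0.57 (adjusted p = 0.00615).

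**Figure D3:**
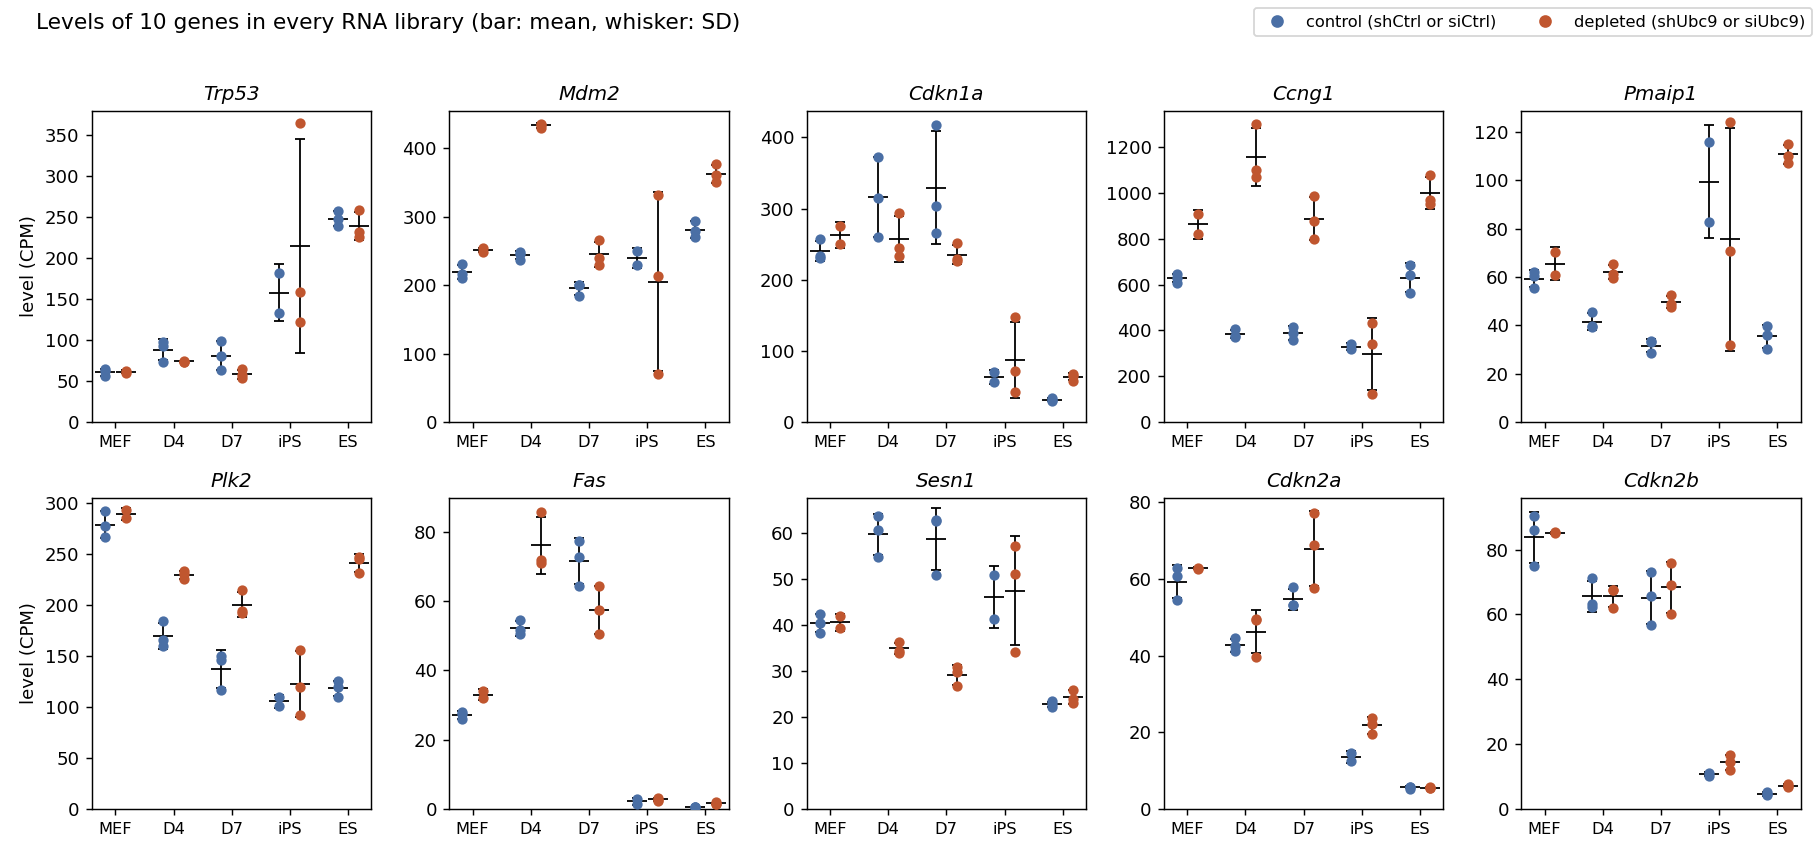
Level (CPM, vertical axis from 0) of 10 genes in each of the 28 libraries, by cell state, with blue points for control and orange points for depleted libraries; black bars are group means and whiskers SDs. Ccng1 is higher in depleted libraries in MEF, D4, D7 and ES cells, Cdkn1a stands apart in ES cells (58.4 to 67.1 against 29.7 to 34.1 CPM), and the iPS shUbc9 points spread widely.

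Of the 13 genes of cell death, 3 rose in MEF, 9 at D4, 7 at D7 and 11 in ES cells, and 1, 1, 2 and 0 fell. Among all genes 3.83%, 27.2%, 27.3% and 21.3% rose and 2.21%, 26.1%, 26.3% and 17.8% fell. Pmaip1, which encodes the mitochondrial death activator Noxa, had the largest rise in ES cells, from 39.9, 30.4 and 36.2 CPM to 115, 110 and 107 CPM (3.21-fold, adjusted p = 9.77e-07). At D4 it went from 39.5, 45.5 and 39.7 CPM to 61.3, 59.5 and 65.4 CPM (1.47-fold, adjusted p = 0.00025) and at D7 from 33.0, 33.5 and 28.5 CPM to 52.4, 47.6 and 48.7 CPM (1.53-fold, adjusted p = 0.000233). The depleted libraries were above the controls in all 3 states, whereas in MEF 55.4, 62.0 and 60.5 CPM overlapped with 70.3 and 60.8 CPM (adjusted p = 0.314). The ES response of Pmaip1 exceeded the D7 response by 1.01 (adjusted p = 1.3e-05).

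Fas, the cell surface death receptor, changed direction between states. It rose in ES cells from 0.615, 0.602 and 0.577 CPM to 1.45, 1.42 and 1.89 CPM (2.75-fold, adjusted p = 0.000284), a rise at a very low level. At D4 it rose from 50.4, 54.6 and 51.7 CPM to 71.8, 71.1 and 85.7 CPM (1.44-fold, adjusted p = 0.000939). At D7 it fell from 72.7, 77.5 and 64.4 CPM to 64.5, 50.6 and 57.6 CPM (1.27-fold, adjusted p = 0.0162). The D7 groups overlapped by 1 library each, and the call ended without shUbc9 replicate 3 (adjusted p = 0.0512) and with library sizes alone (log2 fold change -0.14, adjusted p = 0.33). The Fas response at D7 differed from that at D4 by -0.86 (adjusted p = 0.00122), and the ES response from that at D7 by 1.75 (adjusted p = 8.6e-06).

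Eda2r, a receptor of the TNF receptor family, rose 1.17-fold in MEF, 1.86-fold at D4 (144 ± 11.3 to 271 ± 21.7 CPM, SD, n = 3 each), 1.48-fold at D7 and 1.56-fold in ES cells. Ei24, an endoplasmic reticulum protein, rose 1.18-fold in MEF, 1.51-fold at both D4 and D7, and 1.17-fold in ES cells. Bax, which forms the mitochondrial pore, rose 1.36-fold at D4, 1.19-fold at D7 and 1.13-fold in ES cells. Bbc3, which encodes Puma, passed only in ES cells (1.28-fold, adjusted p = 0.000866). Trp53inp1, a cofactor of p53 in cell death and autophagy, rose at D4 (1.32-fold) and in ES cells (1.49-fold), and Apaf1, the scaffold that activates caspases, rose 1.18-fold and 1.41-fold in the same states. Perp, a membrane protein of desmosomes, fell 1.52-fold in MEF (adjusted p = 0.00127) and rose 1.25-fold at D7 and 1.32-fold in ES cells. Zmat3, a zinc-finger RNA-binding protein, fell 1.48-fold at D4 and 1.97-fold at D7. Aen, a nuclease, and Phlda3, an inhibitor of Akt, rose at D4, D7 and in ES cells by 1.16-fold to 1.21-fold for Aen and by 1.18-fold to 1.44-fold for Phlda3.

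In DNA repair and nucleotide supply, Xpc, the damage sensor of nucleotide excision repair, rose 1.35-fold at D4, 1.18-fold at D7 and 1.14-fold in ES cells. Polk, a polymerase that copies past damaged bases, fell 1.18-fold in MEF, 1.26-fold at D4 and 1.45-fold at D7 but rose 1.29-fold in ES cells, and its ES and D7 responses differed by 0.84 (adjusted p = 2.35e-05). Rrm2b, the p53-induced subunit of ribonucleotide reductase, rose 1.52-fold at D4 and did not pass elsewhere. Ddb2, which recognises ultraviolet damage, fell 1.42-fold at D4.

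Of the 5 genes of metabolism and stress, Sesn1 fell most. This sestrin, which restrains the growth kinase mTORC1, went from 62.6, 62.9 and 51.0 CPM to 30.9, 29.8 and 26.8 CPM at D7 (2.07-fold lower, adjusted p = 1.89e-05). At D4 it went from 54.9, 63.7 and 60.7 CPM to 34.4, 34 and 36.4 CPM (1.74-fold lower, adjusted p = 2.5e-05). No depleted library reached a control library in either state. In MEF, Sesn1 was at 38.4, 42.4 and 40.5 CPM against 39.3 and 41.9 CPM, and in ES cells at 23.4, 22.3 and 22.8 CPM against 23.1, 26.0 and 23.9 CPM, and these groups overlapped. The difference of responses was -0.82 between D4 and MEF (adjusted p = 2.01e-05) and 1.13 between ES cells and D7 (adjusted p = 1.68e-06). The related Sesn2 fell 1.32-fold at D4 and 1.23-fold at D7. Dcxr, a carbonyl reductase, rose 1.44-fold at D4, 1.20-fold at D7 and 1.82-fold in ES cells. Ddit4, another inhibitor of mTORC1, fell 1.15-fold at D4 and rose 1.35-fold in ES cells, and Gdf15, a stress cytokine, fell 1.52-fold in ES cells.

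Responses in ES cells and at D7 were compared by an interaction term, which also carries the difference between a small interfering RNA and a hairpin. It was called for 16 of the 32 genes, 11 with the higher response in ES cells and 5 with the lower, against 44.3% of all genes (20.1% higher and 24.3% lower). Cdkn1a, Fas, Polk and Plk3 were called in opposite directions in the 2 states, as were 12.2% of the 15774 genes tested in both. The D4 response was higher than the MEF response for 15 members and lower for 3 (36.6% of all genes, 17% and 19.6%), and the D7 response was lower than the D4 response for 4 and higher for 0 (12.3% of all genes, 6.24% and 6.04%). The lower members in the D4 comparison were 5 without D4 shCtrl replicate 2. Those in the D7 comparison were 7, with 4 higher, without D7 shUbc9 replicate 1, and 2 without D4 shCtrl replicate 3 or D7 shCtrl replicate 1, and 1 was higher without D4 shUbc9 replicate 3 or D7 shCtrl replicate 3. With library sizes alone the share with the higher response among all called genes went from 45.2% to 32.4% for ES cells against D7, from 46.4% to 62.2% for D4 against MEF and from 49.2% to 72.9% for D7 against D4.

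**Figure D4:**
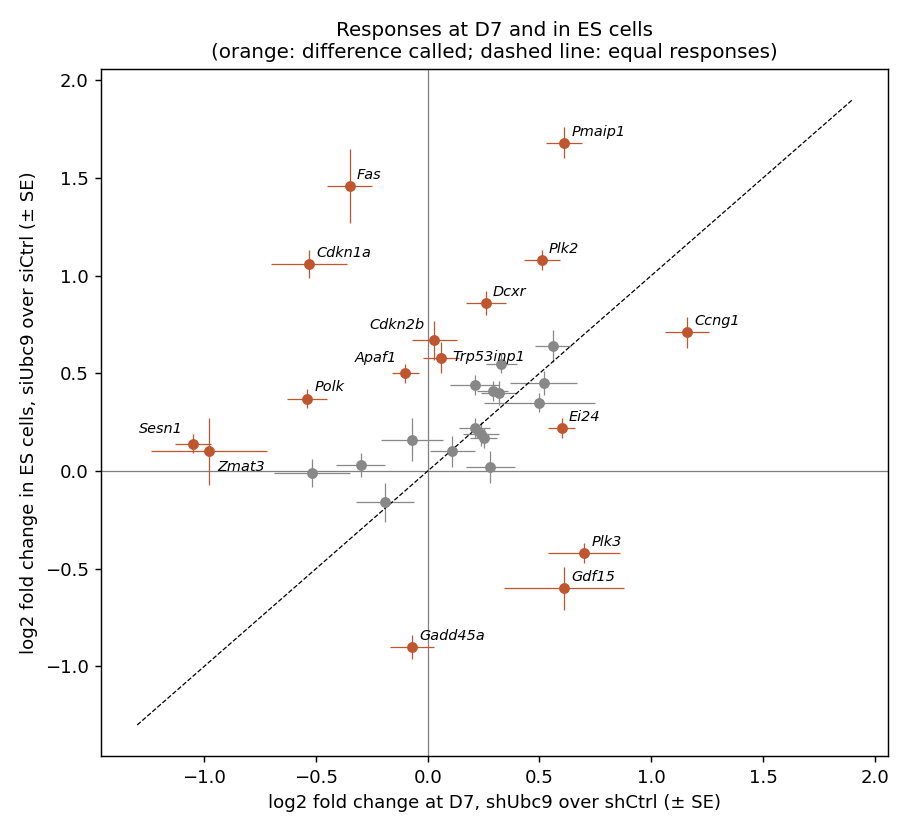
Log2 fold change after Ubc9 depletion at D7 (horizontal axis) and in ES cells (vertical axis) for the 32 genes, with bars of 1 SE; orange points are genes whose 2 responses differed by the test. Fas (-0.35 at D7, 1.46 in ES cells) and Cdkn1a (-0.53, 1.06) lie at upper left, and Plk3 (0.70, -0.42) at lower right.

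Several calls rested on single libraries. The like losses among all genes called are not given here, so no baseline stands beside these counts. In MEF, where the counts were 5 and 2, Mdm2, Fas, Eda2r and Polk each lost their call without shCtrl replicate 1 or 3 or without either shUbc9 library, and Ei24 without either shUbc9 library (adjusted p from 0.0513 to 0.269), which left Ccng1 and Perp. At D4, 16 of 23 calls held whichever library was left out. Gadd45a, Btg2, Zmat3, Phlda3, Ddit4 and Apaf1 were lost without shCtrl replicate 1, among others, and Ddb2 without shCtrl replicate 2 or 3 or shUbc9 replicate 1 (adjusted p from 0.0519 to 0.17). The 6 falls were 3 without shCtrl replicate 3 or shUbc9 replicate 1. At D7, 10 of 21 held (Ccng1, Pmaip1, Sesn1, Btg2, Zmat3, Eda2r, Plk2, Ei24, Polk and Plk3), and each library but shCtrl replicate 2 ended at least 1 of the others (adjusted p from 0.0512 to 0.15). The 14 rises were 7 without shCtrl replicate 1 and 9 without shUbc9 replicate 3, and the 7 falls were 4 without shUbc9 replicate 1 and 3 without its replicate 3. In ES cells 22 of 24 held; Bax was lost without siCtrl replicate 3 or siUbc9 replicate 2 or 3, and Xpc without siCtrl replicate 2 or 3 or siUbc9 replicate 1 or 3 (adjusted p from 0.0624 to 0.129). A single fit over all RNA libraries, in which the iPS libraries share in the estimate of spread, called 0 members higher and 0 lower in MEF, 8 and 1 at D4, 5 and 2 at D7, and 6 and 2 in ES cells. Shares of all genes called by that single fit are not given here, so its counts are not a result about the members alone. Without the filter on low counts the D4 split was 15 higher and 8 lower. With library sizes alone the D7 split became 20 higher and 3 lower, and the share higher among all called genes became 71.5% instead of 50.9%. That scaling ended the D7 calls of Trp53, Cdkn1a, Fas and Sesn2. In MEF it moved the share higher among all called genes from 63.4% to 52.1%.

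Markers of several cell types changed beside these responses, and the part of such cells in them was not tested. The summed level of 10 macrophage markers went from 138 to 203 CPM up to 305 to 312 CPM in MEF, with 8 of 10 called higher, and from 116 to 125 CPM up to 190 to 207 CPM at D4, with 9 of 10 higher. At D7 none of the 10 was called, and the sums were 124 to 209 CPM against 126 to 167 CPM. Summed fibroblast markers fell at D4 from 32000 to 42000 CPM down to 22400 to 24400 CPM, with 8 of 10 called lower, and at D7 from 43800 to 54000 CPM down to 20200 to 24500 CPM, with 10 of 10 lower. At D4, summed epithelial markers were at 216 to 238 CPM against 385 to 409 CPM (5 of 9 tested called higher, 1 lower), and pluripotent markers at 3.02 to 3.7 CPM against 6.97 to 13.9 CPM (3 of 4 tested called higher). Epithelial markers at D7 rose from 294 to 446 CPM up to 1370 to 1460 CPM (10 of 10 called higher), pluripotent markers from 9.5 to 28.6 CPM up to 110 to 139 CPM (9 of 10). In ES cells 6 of 10 pluripotent markers fell, among them the transcription factor Nanog (99.9 ± 3.79 to 49.8 ± 2.87 CPM, SD, n = 3 each).

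In iPS cells 0 of 17294 genes were called by edgeR, 246 genes and 0 members had an unadjusted p under 0.05, and DESeq2 called 9 genes, 0 of them members. Cdkn1a was at 69.8 and 56.5 CPM with shCtrl and at 42.7, 147 and 72.1 CPM with shUbc9, Mdm2 at 250 and 230 CPM against 214, 69.9 and 332 CPM, and Trp53 at 133 and 182 CPM against 159, 364 and 122 CPM. The library shUbc9 replicate 2 was the highest for Cdkn1a and Trp53 and the lowest for Mdm2, and the groups overlapped for all 3 genes. Cdkn2a was at 14.7 and 12.5 CPM against 22.1, 23.8 and 19.5 CPM and Cdkn2b at 10.3 and 11.1 CPM against 16.7, 12.1 and 14.4 CPM; neither pair overlapped, as in 12.4% of all genes, and neither passed (adjusted p = 1 for both). A fit over all RNA libraries called Cdkn2a (log2 fold change 0.72, adjusted p = 0.00404) and Dcxr (0.63, adjusted p = 0.0259) higher.

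Along the course of control cells, Cdkn2a and Cdkn2b were lowest, and Trp53 highest, in ES cells. Cdkn2a was at 59.3 ± 4.44 CPM in MEF, 42.7 ± 1.64 at D4, 54.7 ± 2.72 at D7, 13.6 ± 1.54 in iPS cells and 5.63 ± 0.285 CPM in ES cells (SD, n = 3, and 2 in iPS), and Cdkn2b at 83.7 ± 7.95, 65.6 ± 4.81, 65.2 ± 8.10, 10.7 ± 0.625 and 4.66 ± 0.529 CPM. The difference between ES cells and MEF was -3.41 on the log2 scale for Cdkn2a (adjusted p = 6.52e-12) and -4.18 for Cdkn2b (adjusted p = 6.56e-12). Both were called lower at D4 than in MEF, and Cdkn2a was called higher at D7 than at D4 (0.38, adjusted p = 0.00584). The D4 and D7 levels of Cdkn2b overlapped. In iPS controls Cdkn2a and Cdkn2b were above ES controls by 1.25 and 1.18 on the log2 scale (adjusted p = 0.00112 and 0.0019), beside summed fibroblast markers of 497 to 1320 CPM in iPS and 74.9 to 90.3 CPM in ES cells.

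**Figure D5:**
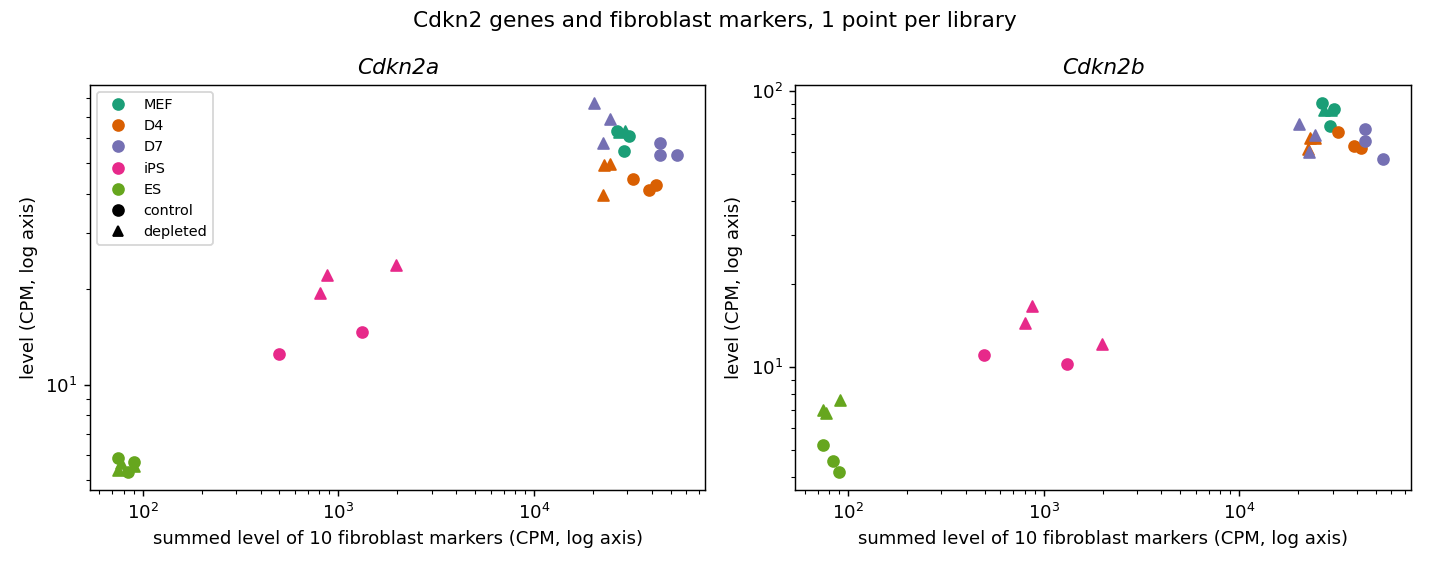
Level (CPM, log axis) of Cdkn2a (left) and Cdkn2b (right) against the summed level of 10 fibroblast markers (CPM, log axis), 1 point per library, coloured by cell state, with circles for control and triangles for depleted libraries. ES libraries lie at lower left (Cdkn2a from 5.31 to 5.86 CPM in controls), iPS libraries between, and MEF, D4 and D7 libraries at upper right.

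Cdkn1a was at 240 ± 14.3 CPM in MEF, 316 ± 55.9 at D4, 329 ± 79.3 at D7, 63.1 ± 9.40 in iPS and 31.7 ± 2.23 CPM in ES cells, and the D4 and D7 libraries overlapped. Trp53 was lowest in MEF and highest in ES cells, with 60.9 ± 4.15 CPM in MEF, 88.1 ± 12.8 at D4, 80.9 ± 17.4 at D7, 158 ± 35 in iPS and 248 ± 8.88 CPM in ES cells (ES against MEF: log2 2.01, adjusted p = 2.64e-10). Fas had the widest range, from 71.5 ± 6.65 CPM at D7 to 0.598 ± 0.0195 CPM in ES cells, and Plk3 was 11 times as high in ES cells (72.5 CPM) as at D7 (6.57 CPM). Mdm2, by contrast, varied only 1.43-fold among control groups. Of the 32 genes, 9 were called higher and 14 lower in ES cells than in MEF, in a comparison that called 90.5% of all genes (47.7% higher, 42.8% lower) and in which library sizes alone moved the median of all genes from 0.13 to 0.27. D4 against MEF gave 10 higher and 11 lower (66.7% of all genes were called, 33.3% higher and 33.5% lower). D7 against D4 gave 3 and 10 (18.2% of all genes, 10.6% higher and 7.65% lower), and iPS against ES cells gave 14 and 6 (53.3% of all genes, 27.3% higher and 26% lower). With library sizes alone the share higher among all called genes went from 49.8% to 62.2% for D4 against MEF and from 58% to 39.4% for D7 against D4. The 10 falls from D4 to D7 were 4 to 6 when D4 shCtrl replicate 1, 2 or 3 or D7 shCtrl replicate 1 was left out, and the 6 lower members in iPS were 11 without iPS shCtrl replicate 1.

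Other genes of the pathway were counted by lists, to be read against the 6.04% of all genes called in MEF (3.83% higher, 2.21% lower), 53.2% at D4 (27.2%, 26.1%), 53.6% at D7 (27.3%, 26.3%) and 39.1% in ES cells (21.3%, 17.8%). Among 18 regulators of p53, 7 rose and 5 fell at D4, 6 and 5 at D7, and 4 and 2 of 17 tested in ES cells, with 0 in MEF. The median log2 fold change of the list was 0.07 at D4, -0.01 at D7 and 0.06 in ES cells, and the D7 and ES counts lie near the shares of all genes. The DNA damage kinases Atm (139 ± 3.88 to 181 ± 8.42 CPM) and Atr (61.1 ± 6.20 to 82.2 ± 2.22 CPM) rose at D4, and Chek1 (1.69-fold, to 23.6 ± 2.42 CPM) and Chek2 (16.1 ± 1.30 to 21.9 ± 1.91 CPM) at D7. Pml, the scaffold of nuclear bodies that are rich in SUMO, fell at D4 (193 ± 18.9 to 135 ± 9.88 CPM), at D7 (142 ± 9.31 to 90.0 ± 5.30 CPM) and in ES cells (262 ± 30.8 to 213 ± 6.61 CPM, adjusted p = 0.0491). Mdm4, the partner of Mdm2, and the family member Trp73 rose in ES cells (282 ± 7.46 to 333 ± 14.6 CPM and 19.8 ± 2.15 to 29.6 ± 1.14 CPM), and the deacetylase Sirt1 fell there (141 ± 10.3 to 98.7 ± 2.12 CPM). The p53 relative Trp63 fell at D7 (5.86 ± 1.08 to 3.27 ± 0.103 CPM), and Daxx, a histone chaperone, fell at D4 (75.3 ± 7.15 to 57.4 ± 1.07 CPM).

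Of 25 other p53 targets tested, 1 rose and 1 fell in MEF (Bid and Sfn), 15 and 6 at D4, 12 and 6 at D7, and 11 and 6 in ES cells. Of all genes, 6.04%, 53.2%, 53.6% and 39.1% were called in these states, and the falls at D4 and D7 lie near the 26.1% and 26.3% of all genes. Tigar, which lowers glycolytic flux, rose at D4 (23.6 ± 2.06 to 49.4 ± 0.978 CPM, log2 fold change 1.04, adjusted p = 7.17e-06) and at D7 (24.3 ± 3.05 to 59.6 ± 2.93 CPM, 1.25, adjusted p = 7.64e-06). The kinase gene Dyrk3 rose by 1.39 and 1.64 on the log2 scale in the same states. In ES cells Fdxr, ferredoxin reductase, rose from 17.5 ± 0.440 to 28.4 ± 1.06 CPM, and Slc19a2, a thiamine transporter, from 125 ± 9.44 to 170 ± 6.78 CPM. Steap3, a metalloreductase, fell at D4 (-0.77), D7 (-1.87) and in ES cells (-0.79), and the sulfatase Sulf2 fell at D4 (-0.52) and D7 (-0.73). The adaptor protein gene Sfn (14-3-3 sigma) fell in MEF (8.17 ± 0.679 to 5.72 ± 0.898 CPM) and in ES cells (14.5 ± 0.455 to 8.50 ± 0.628 CPM).

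Other senescence genes rose for 8 of 23 tested in MEF, 10 of 23 at D4, 8 of 24 at D7 and 6 of 20 in ES cells, and fell for 0, 6, 7 and 2. The D7 and ES counts lie near the 27.3% higher and 26.3% lower, and the 39.1% called, of all genes. In MEF the collagenase Mmp13 went from 20.2 ± 0.848 to 52.5 ± 1.43 CPM and the chemokine Ccl2 from 66.3 ± 3.69 to 121 ± 1.96 CPM (n = 3 and 2), beside the macrophage markers given above. At D4 the urokinase receptor gene Plaur rose from 18.4 ± 0.659 to 45.1 ± 2.18 CPM. Plaur rose at D7 as well (23.5 ± 2.82 to 60.2 ± 5.29 CPM), with the stromelysin Mmp3 (291 ± 29.9 to 686 ± 51.5 CPM), but fell in ES cells (34.4 ± 1.8 to 20.1 ± 0.582 CPM). The secreted binding proteins Igfbp3 and Igfbp5 fell at D4 (-0.85 and -1.69 on the log2 scale) and at D7 (-1.52 and -2.83), and Igfbp3 rose in ES cells (1.27) with the cell cycle brake Rb1 (0.87). Lmnb1, the nuclear lamin that senescent cells lose, fell in ES cells (352 ± 34.1 to 282 ± 7.87 CPM).

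Cell cycle genes that p21 is known to lower did not move as 1 group across states. None of the 12 rose in MEF and 4 fell, at D4 2 rose and 2 fell, at D7 12 rose and 0 fell, and in ES cells 0 rose and 2 fell, beside 53.6% of all genes called at D7 and 39.1% in ES cells. At D7 Ccnb1, cyclin B1, went from 31.2 ± 5.32 to 80.4 ± 5.21 CPM and Cdc20, an activator of the anaphase-promoting complex, from 46.3 ± 5.11 to 102 ± 9.33 CPM. Both also rose at D4 (60.5 ± 4.97 to 84.6 ± 9.60 CPM and 97.8 ± 8.11 to 117 ± 6.70 CPM), where the mitotic kinases Plk1 and Aurkb fell by 0.31 and 0.29 on the log2 scale. Cdkn1a was lower at D7, by a call that ended without shUbc9 replicate 1 or 3, and a link was not tested. In controls all 12 cell cycle genes were called lower at D7 than at D4. Their summed level was 1310 to 1390 CPM in D4 shCtrl, 672 to 744 CPM in D7 shCtrl and 1060 to 1230 CPM in D7 shUbc9. In MEF the proliferation marker Mki67 (166 ± 19.4 to 128 ± 5.21 CPM) and the survivin gene Birc5 (28.6 ± 2.40 to 23.1 ± 0.00464 CPM) fell, and in ES cells Top2a (1500 ± 94.4 to 1180 ± 76.6 CPM) and Ccnb2 (106 ± 6.02 to 91.4 ± 1.92 CPM).

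Repressors of the Cdkn2a locus, mostly Polycomb proteins, numbered 11, and the shares of all genes called were again 53.2% at D4, 53.6% at D7 and 39.1% in ES cells. In ES cells 1 of 10 tested rose (Bmi1, 21.9 ± 1.91 to 30.9 ± 1.86 CPM) and 6 fell, among them Kdm2b (222 ± 19.5 to 142 ± 4.02 CPM) and Cbx7 (209 ± 10.4 to 162 ± 1.22 CPM). At D4 3 rose, with Eed and Bmi1 by 0.38 and 0.45 on the log2 scale, and 4 fell, with the T-box factors Tbx2 and Tbx3 by 0.81 and 0.57. At D7 4 rose, with Eed and Suz12 by 0.41 and 0.36, and 0 fell, and in MEF 0 were called. Of 8 genes of the integrated stress response, which induces some p53 targets by another route, 3 rose and 1 fell at D4, 3 and 3 at D7, 1 and 4 in ES cells, and 0 and 1 in MEF. Asns, asparagine synthetase, rose at D4 (72.7 ± 6.89 to 153 ± 9.79 CPM) and D7 (77.1 ± 11.6 to 150 ± 11.1 CPM), and Atf3, a stress transcription factor, at D4, D7 and in ES cells (1.86 ± 0.178 to 5.78 ± 0.430 CPM). Chac1, which degrades glutathione, fell in MEF (55.1 ± 3.88 to 44.4 ± 3.20 CPM) and in ES cells (28.1 ± 2.58 to 15.2 ± 1.28 CPM), with Trib3, a pseudokinase, in ES cells (34.4 ± 2.79 to 21.7 ± 0.630 CPM).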

How the data were processed

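RNA was measured in 28 mouse libraries of 10 groups (total RNA after ribosomal RNA removal, stranded kit, per the labels' protocols). The authors deposited counts of reads per gene and per repeat family, made with STAR 2.5.0a and featureCounts on mm9, per the submitters' processing notes; whether counting used strand is not stated. The table holds 26301 genes and 799 repeat families. Repeat families took 7.22% to 24.8% of the counts of a library and were left out of library sizes and tests. Gene symbols were matched to 24191 of the identifiers.

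Each of the 5 depletion comparisons, 4 control comparisons and 3 differences of responses was fitted alone with edgeR 4.0.16 in R 4.3.3 (TMM scaling, filterByExpr with a minimum count of 10, quasi-likelihood F test). P-values were adjusted by Benjamini-Hochberg over all genes tested and called under 0.05. CPM shown are on 1 TMM scale over the 28 libraries. Fold changes are those of the fits. DESeq2 1.42.0 and the other alternatives are given in the closing section, and the tests were checked on simulated data. No pair of replicates was within sampling noise. Peak files were not used, and some genes are not reported here. Members, gene lists and naming rules (every library for p53, Mdm2, Cdkn1a, Cdkn2a, Cdkn2b and genes called at 2-fold or more; from each list, up to 2 rises and 2 falls of lowest p per comparison) were chosen with earlier results of these data known.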

Additional observations from a re-analysis of the deposited data

Results flagged for a closer look

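Responses to Ubc9 depletion that differed between cell states by the interaction test of edgeR are listed here as differences of log2 fold changes, with no explanation. Each has an adjusted p under 0.05 over all genes tested.

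Between D4 and MEF, the response at D4 was higher for Mdm2 by 0.60, Ccng1 by 1.09, Pmaip1 by 0.40, Trp53inp1 by 0.35, Bax by 0.38, Eda2r by 0.65, Phlda3 by 0.25, Plk2 by 0.35, Rrm2b by 0.50, Ei24 by 0.34, Perp by 0.72, Aen by 0.21, Xpc by 0.26, Dcxr by 0.33 and Plk3 by 0.35. It was lower for Sesn1 (-0.82), Sesn2 (-0.31) and Ddb2 (-0.79).

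Between D7 and D4, the response at D7 was lower for Mdm2 (-0.50), Fas (-0.86), Rrm2b (-0.48) and Apaf1 (-0.32).

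Between ES cells and D7, the response in ES cells was higher for Cdkn1a by 1.53, Pmaip1 by 1.01, Trp53inp1 by 0.45, Fas by 1.75, Sesn1 by 1.13, Zmat3 by 1.02, Plk2 by 0.51, Cdkn2b by 0.57, Polk by 0.84, Apaf1 by 0.53 and Dcxr by 0.54. It was lower for Ccng1 (-0.51), Gadd45a (-0.90), Ei24 (-0.44), Gdf15 (-1.27) and Plk3 (-1.18).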

How the results depend on the processing

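Counts of members are given as higher and lower. A single edgeR fit over all RNA libraries gave 0 and 0 in MEF, 8 and 1 at D4, 5 and 2 at D7, 2 higher in iPS cells, and 6 and 2 in ES cells. It gave 4 and 6 for D4 against MEF in controls, 0 and 0 for D7 against D4, and, for differences of responses, 0 and 1 for D4 against MEF, 1 lower for D7 against D4 and 5 higher for ES cells against D7. Library sizes alone gave 3 lower at D7, 7 lower for D4 against MEF in controls, 1 higher for D7 against D4 in controls, and 1 and 2 for the difference of responses between D7 and D4. DESeq2 gave 1 higher for that difference. Shares of all genes called under these settings are not given here. The counts therefore do not show whether members shifted more than other genes. The cause of these shifts was not tested.

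Same-numbered replicates did not deviate together at D4 (correlations 0.00, -0.37 and -0.22), D7 (-0.09, -0.29 and -0.08), MEF (-0.02 and -0.11) or iPS (-0.47 and -0.20). In ES cells they did so weakly (0.21, 0.16 and 0.04), and for replicates 1 and 2 the same-numbered library was the best match. Deviations from the mean of 2 or 3 libraries cannot show whether replicates were paired. With the replicate block the depletion counts were 6 and 3 in MEF, 15 and 4 at D4, 11 and 6 at D7, 0 and 0 in iPS cells and 21 and 3 in ES cells. The block gave 5 higher for the response at D4 against MEF and 2 lower for D7 against D4.

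Leaving out 1 library at a time gave 1 to 6 higher and 1 to 3 lower in MEF, 13 to 17 and 3 to 7 at D4, 7 to 16 and 3 to 7 at D7, 0 and 0 in iPS cells, and 19 to 21 and 3 in ES cells. For controls it gave 9 to 10 and 14 to 15 (ES against MEF), 9 to 11 and 9 to 14 (D4 against MEF), 3 and 4 to 10 (D7 against D4), and 12 to 19 and 4 to 11 (iPS against ES). For differences of responses it gave 10 to 17 and 2 to 5 (D4 against MEF), 0 to 4 and 2 to 7 (D7 against D4), and 10 to 13 and 5 to 6 (ES against D7). An uncalled value changed sign and was then called in 3 cases: the pluripotency gene Lin28a at D7 (from -0.57 to 1.14, the latter without shCtrl replicate 2), and Ddit4 (-0.60 to 1.12) and Apaf1 (-0.26 to 0.50) in iPS against ES controls, lowest without iPS shCtrl replicate 1.

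Both the number of libraries, 2 or 3 a group, and depth limit these counts. Fas in ES cells lies near 1 CPM.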
